A study of Mus musculus with 21 samples.

Results

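The genes described here are 9 mouse cytokine genes: the TNF superfamily ligands Tnf and Tnfsf9, Il6, the IL-12 family genes Il12a, Il12b, Il23a, Il27 and Ebi3, and Il10. They were chosen by gene name in the deposited table of transcript levels, and the levels of each gene's transcripts were summed. All 9 were found among 23544 genes. RNA was sequenced from CD11b+ cells, flushed from the unelicited peritoneal cavity of C57BL/6 mice (the labels give 10 mice and no ages), selected for CD11b and plated overnight. The 21 libraries each hold a different combination of genotype, added protein and stimulus, so no combination has a replicate. Libraries labelled Lum-/- (6) had recombinant lumican or no protein, libraries labelled Bgn-/- (6, from animals the labels give as Bgn-/0 or -/-) had recombinant biglycan or no protein, and wild-type libraries (9) had lumican, biglycan or no protein. Each of these was paired with LPS at 100 ng/mL for 6 h, with CpG DNA at 1 µM for 6 h, or with no stimulus. The proteins were given at 10 µg/mL, 1 h before LPS or CpG, and for protein without a stimulus neither a dose nor a time is labelled. No library is tied to an animal by its label, and genotype and cell preparation cannot be told apart. The genes lie, on GRCm38, on chromosome 17 (Tnf, 35199381 to 35202007; Ebi3, 55952640 to 55957022; Tnfsf9, 57105325 to 57107757), chromosome 5 (Il6, 30013114 to 30019981), chromosome 3 (Il12a, 68690644 to 68698547), chromosome 11 (Il12b, 44400063 to 44414033), chromosome 10 (Il23a, 128296139 to 128298752), chromosome 7 (Il27, 126589010 to 126594941) and chromosome 1 (Il10, 131019845 to 131024974).

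LPS, an outer membrane component of Gram-negative bacteria, is sensed by the receptor TLR4, and unmethylated CpG DNA by TLR9 inside the cell. In macrophages both receptors lead to NF-kB activity and to transcription of early cytokine genes. Tnf encodes the inflammatory cytokine TNF, and Tnfsf9 encodes the ligand of the T cell co-stimulatory receptor 4-1BB. Il6 encodes a cytokine of the acute-phase response. The IL-12 family is built of paired subunits. Il12b encodes the subunit that IL-12 shares with IL-23, Il12a completes IL-12 and Il23a completes IL-23. Il27 and Ebi3 encode the subunits of IL-27, and EBI3 also pairs with the Il12a product in IL-35. Il10 encodes a cytokine that restrains macrophage activation. Lumican and biglycan belong to the leucine-rich proteoglycans that bind collagen in the extracellular matrix. Biglycan has been described as a ligand of TLR2 and TLR4, and lumican as a protein that presents LPS to CD14.

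The promoters below are shown because Il6, Il12b and Tnf are the 3 members with the largest rise with LPS on the log2(TPM + 1) scale (with a pseudocount of 0.1 in place of 1, the rise of Il23a came second), whereas Ebi3 was not called between LPS and no stimulus. RefSeq (GRCm38.p6) gave promoters for 5 of the 9 members. Each line is the 250 bases before the transcription start, 5′ to 3′ on the gene's own strand, and capitals mark every match to the NF-kB motif GGGNNNNNCC on either strand, overlapping matches included. The windows lie at chr17:35202008-35202257, minus strand for Tnf, chr5:30012864-30013113, plus strand for Il6, chr11:44399813-44400062, plus strand for Il12b and chr17:55952373-55952622, plus strand for Ebi3.
Tnf: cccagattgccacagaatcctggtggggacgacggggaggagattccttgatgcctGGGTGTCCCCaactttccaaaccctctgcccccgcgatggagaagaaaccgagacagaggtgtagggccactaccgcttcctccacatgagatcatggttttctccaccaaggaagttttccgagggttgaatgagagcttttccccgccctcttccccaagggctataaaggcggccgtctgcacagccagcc
Il6: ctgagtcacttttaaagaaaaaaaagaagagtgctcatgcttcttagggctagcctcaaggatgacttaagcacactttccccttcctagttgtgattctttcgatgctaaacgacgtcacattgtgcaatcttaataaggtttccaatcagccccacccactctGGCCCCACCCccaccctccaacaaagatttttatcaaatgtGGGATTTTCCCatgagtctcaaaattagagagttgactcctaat
Il12b: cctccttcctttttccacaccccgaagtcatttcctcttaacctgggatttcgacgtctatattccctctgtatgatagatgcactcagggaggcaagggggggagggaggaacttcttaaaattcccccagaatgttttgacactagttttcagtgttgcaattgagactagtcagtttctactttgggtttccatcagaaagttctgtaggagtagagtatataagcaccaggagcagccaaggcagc
Ebi3: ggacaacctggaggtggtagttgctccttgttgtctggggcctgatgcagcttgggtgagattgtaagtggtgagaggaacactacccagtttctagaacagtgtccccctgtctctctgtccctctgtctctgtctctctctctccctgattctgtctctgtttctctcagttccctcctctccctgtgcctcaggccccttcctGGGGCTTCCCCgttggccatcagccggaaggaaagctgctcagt
Tnf, Il6 and Ebi3 held the NF-kB motif in these windows, and Il12b did not. In Il6 a match lay 44 to 35 bases before the start, in Ebi3 44 to 35 bases before it, and in Tnf 194 to 185 bases before it. Il12a has 2 starts in RefSeq, and the motif was in the window of the second start, not in that of the first. The letters are common, since 45.8% of 32851 mouse promoter windows of the same length held them. The AP-1 motif TGANTCA was found in Il6 among these windows (6.75% of all promoters held it), and the TATA motif TATAAA in Tnf (12.4%). The motif GAAANNGAAA of interferon-regulatory elements was in none of the 6 windows (2.98%). The NF-kB motif was thus present both in members that LPS raised strongly and in Ebi3, and a match is a description of letters, not a binding site. No match to this pattern, as in Il12b, likewise does not mean that a promoter lacks an NF-kB site.

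Levels are in TPM (transcripts per 1000000, a share of the library per unit of transcript length), so levels can be compared between genes within a library. Between libraries they are shares of a fixed total, and results that turn on this are given after scaling too. The table gives no counts and states no sequencing depth; between 14131 and 17945 genes were above 0 in a library. The defining macrophage markers were present throughout (8 genes summing to 11488 to 15270 TPM with LPS, 32566 to 37410 with CpG and 29561 to 43665 without a stimulus), whereas markers of T cells, NK cells, eosinophils and mesothelial cells each summed to at most 6.84 TPM. Most of the macrophage sum was Lyz2, at 9666 to 38548 TPM over all libraries, against 542 to 949 for Adgre1 and 287 to 644 for Itgam. B cell markers summed to 86.5 to 275 TPM, and neutrophil markers to 352 to 422 TPM with LPS, 222 to 277 with CpG and 243 to 406 without a stimulus. Most of the neutrophil sum was S100a8 and Mmp8. The other neutrophil markers Ly6g and S100a9 were listed at 0 in 17 and 14 of the 21 libraries and reached at most 0.302 and 0.589 TPM. The targeted genes went against the labels. Lum was at 0.823 to 14.1 TPM in libraries labelled Lum-/-, against 0 to 1.40 in wild type, and Bgn was at 0 to 3.49 TPM in libraries labelled Bgn-/-, against 0.327 to 1.52 in wild type. Bgn was at 0 to 0.0325 TPM in the 4 stimulated libraries labelled Lum-/- and at 0.263 and 1.72 in the unstimulated ones, and Lum was at 0 to 0.134 TPM in 5 of the 6 libraries labelled Bgn-/- and at 1.10 in the unstimulated one with biglycan. Whether the 2 labels were exchanged was not tested, so genotype is given as labelled and each genotype comparison holds for the labels alone. The unstimulated library labelled Lum-/- without protein and the unstimulated library labelled Bgn-/- with biglycan were the most alike of all 210 pairs (median absolute log2 difference 0.0770 over genes averaging 20 TPM or more, against a median of 0.26 over all pairs). They had the fewest genes above 0 and the highest Arg1, at 688 and 601 TPM against at most 67.2 in the other 19. The wild-type library with neither protein nor stimulus also stood apart, with mast cell markers summing to 3.40 TPM, against 64.0 to 114 in the other wild-type libraries. Calls of members that change without the first 2 of these libraries, or without all 3, are named beside the result.

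LPS raised 8 of the 9 members, where 14.04% of all genes tested were called higher. Il23a, among these 8, passed the filter on low levels (a mean of 1 TPM) only through its LPS libraries. The count of 8 is thus not independent of the filter. The range of libraries with LPS did not overlap that of unstimulated libraries for any of those 8, though for Il10 the lowest LPS value, 5.874 TPM, was next to the highest unstimulated one, 5.867. The member with the largest change was Il6. Its level was 2542 to 3515 TPM (median 3279) in the 7 LPS libraries, 7.72 to 15.8 (median 13.6) in the 7 CpG libraries and 2.27 to 11.7 (median 4.60) in the 7 libraries without a stimulus. With LPS its place among all genes of a library, by TPM, was 31 to 43. On the log2(TPM + 1) scale Il6 rose by 8.99 ± 0.30 (SE, limma, adjusted p = 7.41e-12, residual degrees of freedom 10). With no replicates, p-values and SE here measure the spread between libraries of other genotypes and treatments, not between animals, and that spread may be partly technical. Tnf was at 3549 to 6808 TPM (median 4268) with LPS, 218 to 413 (median 339) with CpG and 68.1 to 238 (median 149) without a stimulus. Tnf was thus already abundant in unstimulated cells, and with LPS its place was 17 to 30. It rose by 5.07 ± 0.19 with LPS (adjusted p = 2.43e-11), a larger level but a smaller change than that of Il6. The level of Tnf over that of Il6 was 1.01 to 2.08 with LPS, 21.5 to 31.0 with CpG and 6.10 to 86.6 without a stimulus.

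**Figure D1:**
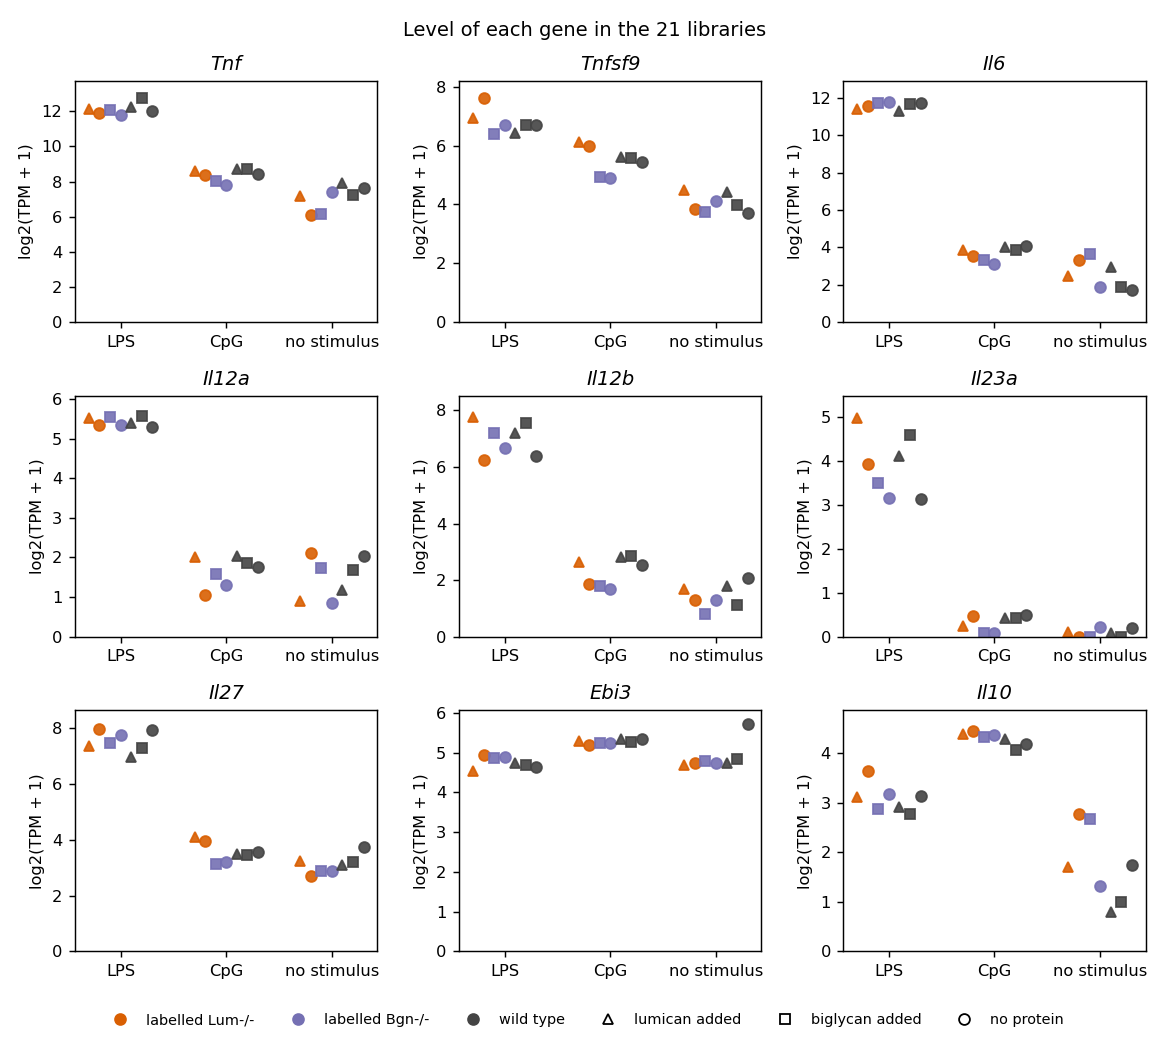
Level of the 9 genes in each of the 21 libraries, as log2(TPM + 1), with LPS, CpG and no stimulus from left to right; colour gives the genotype label and shape the added protein. For 8 genes the 7 LPS libraries lie above the 7 unstimulated ones, Ebi3 overlaps, and Il10 is highest with CpG (15.8 to 20.997 TPM).

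All 3 subunit genes of IL-12 and IL-23 were low without LPS. Il12b was at 75.5 to 217 TPM (median 146) with LPS, 2.24 to 6.15 (median 4.73) with CpG and 0.736 to 3.18 (median 1.49) without a stimulus, a rise with LPS of 5.68 ± 0.16 on the log2 scale (adjusted p = 3.08e-12). Il12a was at 38.0 to 46.2 TPM (median 41.3) with LPS, 1.09 to 3.11 (median 2.41) with CpG and 0.806 to 3.34 (median 2.24) without a stimulus, and rose by 3.97 ± 0.16 with LPS (adjusted p = 4.48e-11). Its highest LPS value was 1.22 times its lowest, the smallest such spread of the 9 members. Il23a was at 7.80 to 30.3 TPM (median 14.2) with LPS, at 0.0591 to 0.408 with CpG and at 0 to 0.163 without a stimulus, where 3 of 7 libraries list it at 0. Il23a passed the filter on low levels only through its LPS libraries, and its fitted change of 3.92 ± 0.17 (adjusted p = 9.85e-11) depends on the pseudocount. It was 2.01 with a pseudocount of 5 and 6.67 with a pseudocount of 0.1. With LPS the order of levels was Il12b, Il12a, Il23a in every library. Il12b was 1.92 to 4.85 times Il12a, and Il12a was 1.47 to 5.01 times Il23a.

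The 2 subunit genes of IL-27 parted. Il27 was at 124 to 251 TPM (median 175) with LPS, 7.87 to 16.1 (median 10.4) with CpG and 5.59 to 12.5 (median 7.52) without a stimulus, and rose by 4.36 ± 0.15 with LPS (adjusted p = 1.49e-11). Ebi3 was at 22.2 to 29.7 TPM (median 25.9) with LPS, 35.9 to 39.95 (median 37.8) with CpG and 24.9 to 51.8 (median 25.7) without a stimulus. Its change of −0.12 ± 0.13 with LPS did not pass the test (adjusted p = 0.396). The level of Il27 over that of Ebi3 was 4.77 to 10.2 with LPS, 0.212 to 0.421 with CpG and 0.218 to 0.344 without a stimulus, so Ebi3 was the more abundant subunit transcript except with LPS.

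Tnfsf9 and Il10 responded to both stimuli. Tnfsf9 was at 82.4 to 194 TPM (median 104) with LPS, 28.8 to 69.1 (median 46.5) with CpG and 12.0 to 21.4 (median 14.9) without a stimulus, and the 3 ranges did not overlap. It rose by 2.68 ± 0.14 with LPS (adjusted p = 4.72e-10). Il10 was at 5.87 to 11.5 TPM (median 7.65) with LPS, 15.8 to 20.997 (median 19.2) with CpG and 0.740 to 5.87 (median 2.27) without a stimulus. It rose by 1.38 ± 0.22 with LPS (adjusted p = 3.93e-05). The highest unstimulated Il10 values, 5.87 and 5.36 TPM, were those of the 2 libraries that were most alike. Without them the unstimulated range was 0.740 to 2.37 TPM (5 libraries).

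By median level with LPS, the members ran from Tnf through Il6, Il27, Il12b, Tnfsf9, Il12a, Ebi3 and Il23a to Il10. Neighbours whose LPS ranges overlapped were Il27 and Il12b, Il12b and Tnfsf9, Ebi3 and Il23a, and Il23a and Il10. With CpG the order by median was Tnf, Tnfsf9, Ebi3, Il10, Il6, Il27, Il12b, Il12a and Il23a.

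These counts are read against all genes tested. Of the 11763 genes whose mean reached 1 TPM, 14.04% were called higher with LPS and 71.6% lower, and 8.60% had LPS libraries wholly above the unstimulated ones. The median change was 3.97 over the members and −0.71 over all genes. Saa3, a serum amyloid gene, held 88638 to 125656 of 1000000 TPM in a library with LPS, against 49083 to 94125 without a stimulus, and TPM of a library sum to that total. After median-of-ratios scaling, which brought the median change of all genes to 0.01, the same 8 members were called higher and Ebi3 joined them at 0.68 (adjusted p = 0.000372), where 38.9% of all genes were called higher. The direction of Ebi3 with LPS therefore depends on the scaling. The macrophage marker sum, most of it Lyz2, was lower with LPS than without a stimulus, with no overlap (values above). The part of these markers in these results, like that of the neutrophil markers, was not tested. In bulk samples, fewer cells of a type and less RNA per cell cannot be told apart.

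With CpG the members' changes came in a different order, smaller than with LPS for 7 members and larger for Il10 and Ebi3. Il10 had the largest change, a rise of 2.62 ± 0.22 (adjusted p = 2.87e-06), followed by Tnfsf9 at 1.45 ± 0.14 (adjusted p = 9.01e-06) and Tnf at 1.30 ± 0.19 (adjusted p = 0.000222). Il6 (1.12 ± 0.30), Il12b (0.93 ± 0.16), Il27 (0.45 ± 0.15) and Ebi3 (0.42 ± 0.13) also rose, with adjusted p of 0.0102, 0.000681, 0.0387 and 0.0216. Il12a and Il23a, at 0.24 ± 0.16 and 0.24 ± 0.17, did not pass (adjusted p = 0.275 and 0.313). Il12a was called at 0.52 without all 3 libraries that stood apart (adjusted p = 0.00555, with 16.8% of all genes called higher), and Il23a at 1.12 with a pseudocount of 0.1 (adjusted p = 0.0300). The 7 members called are to be read against 14.6% of all genes called higher and 21.3% lower. CpG libraries lay wholly above unstimulated ones for 2 members, Il10 and Tnfsf9, against 4.93% of all genes. When the comparison was limited to libraries without added protein, 3 members were called, Il10, Tnf and Tnfsf9, with 7.11% of all genes called higher. Without the 2 libraries that were most alike, Il27 was no longer called and the other 6 were, with 16.6% of all genes called higher. Summed dendritic cell markers were 47.4 to 63.6 TPM with CpG and 16.6 to 30.4 without a stimulus, most of it Ccr7, and their part was not tested.

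**Figure D2:**
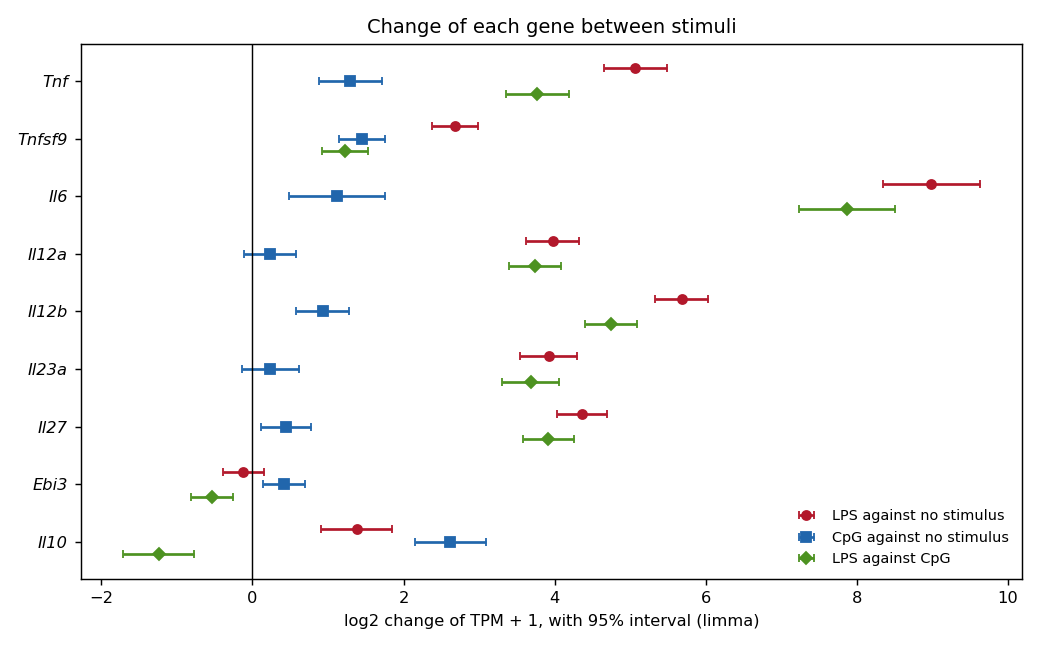
Change of each gene between stimuli on the log2(TPM + 1) scale, with points for the limma estimate and bars for its 95% interval; LPS against no stimulus, CpG against no stimulus and LPS against CpG are drawn from top to bottom for each gene. Il10 and Ebi3 are the 2 genes whose LPS against CpG change lies below 0.

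Set against CpG directly, LPS gave higher levels of 7 members and lower levels of 2. Among the 7 was Il23a, which passed the filter on low levels only through its LPS libraries. The count of 7 is thus not independent of the filter. Il6 differed most, at 7.87 ± 0.30 (adjusted p = 4.99e-11), followed by Il12b at 4.75, Il27 at 3.91, Tnf at 3.77, Il12a at 3.74, Il23a at 3.68 and Tnfsf9 at 1.23. Il10 was lower with LPS than with CpG (difference −1.24 ± 0.22, adjusted p = 0.00011), and the ranges of 5.87 to 11.5 and 15.8 to 20.997 TPM did not overlap. Ebi3 was lower too (difference −0.54 ± 0.13, adjusted p = 0.00142), also with no overlap. Over all genes, 11.6% were called higher with LPS than with CpG and 73.6% lower, with libraries wholly apart for 8.02% and 62.2%. After scaling, Il10 stayed lower at −0.52 (adjusted p = 0.0283), whereas Ebi3 turned to 0.22 and was not called (adjusted p = 0.151). The level of Il12b over that of Il10 was 6.55 to 31.8 with LPS and 0.114 to 0.390 with CpG. Within a library Il12b thus exceeded Il10 in all 7 LPS libraries, and Il10 exceeded Il12b in all 7 CpG libraries. This ratio does not depend on how libraries are scaled. Neutrophil marker sums, mostly S100a8 and Mmp8, were wholly higher with LPS than with CpG. Dendritic cell marker sums were wholly lower (17.4 to 25.3 against 47.4 to 63.6 TPM). The part of these markers in this comparison was not tested.

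The next question was whether recombinant lumican or biglycan changed the LPS response. In all 4 matched pairs Il12b, Il23a, Il12a and Tnf were higher with protein, and Il27, Il10 and Il6 were lower. Some of these differences were small, with ratios as near to 1 as 0.984 for Il6 and 1.09 for Il12a. Both wild-type pairs use the same library with LPS alone, so the pairs are not independent. How many of all genes kept the same direction in all 4 pairs was not counted. Il12b was at 217 TPM with lumican and LPS, against 75.5 with LPS alone, in cells labelled Lum-/-. It was at 146 TPM with biglycan and LPS, against 100.0 with LPS alone, in cells labelled Bgn-/-. In wild type it was at 147 TPM with lumican and LPS and 187 with biglycan and LPS, against 83.1 with LPS alone. The 4 libraries with protein were all above the 3 without, and the ratios within a genotype were 1.46 to 2.87.

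Il23a showed the same direction with more spread. It was at 30.3 TPM with lumican and LPS, against 14.2 with LPS alone, in cells labelled Lum-/-, and at 10.3 TPM with biglycan and LPS, against 7.91 with LPS alone, in cells labelled Bgn-/-. In wild type it was at 16.3 TPM with lumican and LPS and 23.1 with biglycan and LPS, against 7.80 with LPS alone. Because the library labelled Lum-/- had a higher level with LPS alone, the 2 sets of libraries overlapped. Il27 went the other way. It was at 163 TPM with lumican and LPS, against 251 with LPS alone, in cells labelled Lum-/-, and at 175 TPM with biglycan and LPS, against 216 with LPS alone, in cells labelled Bgn-/-. In wild type it was at 124 TPM with lumican and LPS and 156 with biglycan and LPS, against 242 with LPS alone. All 4 libraries with protein were below the 3 without.

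Il10, low with LPS, was at 7.65 TPM with lumican and LPS, against 11.5 with LPS alone, in cells labelled Lum-/-, and at 6.37 TPM with biglycan and LPS, against 8.12 with LPS alone, in cells labelled Bgn-/-. In wild type it was at 6.56 TPM with lumican and LPS and 5.87 with biglycan and LPS, against 7.79 with LPS alone. The 2 sets were apart by a narrow margin, 7.65 against 7.79 TPM. Tnf was at 4268 to 6808 TPM with protein and LPS, against 3549 to 4103 with LPS alone, and its largest ratio within a genotype, 1.66, was that of biglycan in wild type. Il6 was at 2542 to 3426 TPM with protein and LPS, against 2981 to 3515 with LPS alone, and these ranges overlapped.

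**Figure D3:**
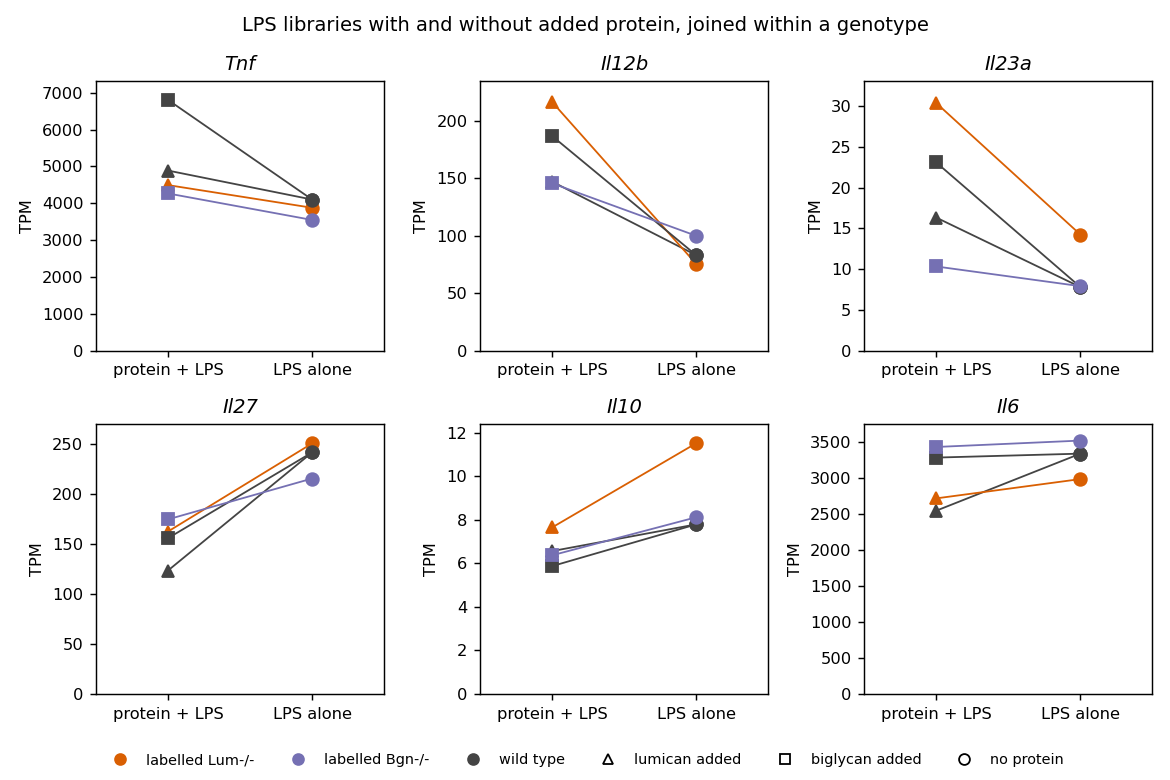
TPM of 6 genes in LPS libraries with added protein (left) and with LPS alone (right), joined within a genotype; the wild-type library with LPS alone is the partner of both proteins. Il12b, Il23a and Tnf are higher in all 4 pairs, and Il27, Il10 and Il6 are lower in all 4.

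In all, 5 of the 9 members had libraries with protein wholly apart from those with LPS alone (Tnf, Il12a and Il12b higher, Il27 and Il10 lower), against 16.9% of all genes, 13.9% higher and 3.00% lower. These ranges are in unscaled TPM. Like Il10, Tnf and Il12a were apart by a narrow margin, 4268 against 4103 TPM and 41.3 against 39.7 TPM. No member passed the test for a single protein with all libraries. With lumican, Il12b differed by 0.95 ± 0.27 (adjusted p = 0.165), Il23a by 1.01 ± 0.30 (adjusted p = 0.169) and Il27 by −0.83 ± 0.26 (adjusted p = 0.194), where 0.0340% of all genes were called. An unadjusted p below 0.05 was found for 3 members, and for 1614 of all 11763 genes tested. Without the 2 libraries that were most alike, Il27 was called with lumican (−0.87, adjusted p = 0.0428), where 2.26% of all genes were, and without all 3 it was called too (−0.84, adjusted p = 0.0262). With biglycan, Il12b differed by 0.92 ± 0.27 (adjusted p = 0.272), Il23a by 0.74 ± 0.30 (adjusted p = 0.372) and Il27 by −0.43 ± 0.26 (adjusted p = 0.580), where 0% of all genes were called and 2 members had an unadjusted p below 0.05 (1340 genes in all).

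Both proteins together were compared with LPS alone after these values had been seen. Il12b then differed by 0.94 ± 0.23 (95% interval 0.45 to 1.43, adjusted p = 0.0666), Il23a by 0.88 ± 0.24 (0.35 to 1.41, adjusted p = 0.101), Il27 by −0.63 ± 0.22 (−1.10 to −0.16, adjusted p = 0.160) and Il10 by −0.33 ± 0.31 (−0.99 to 0.33, adjusted p = 0.633). In the same limma fit Tnf differed by 0.30 ± 0.27 (adjusted p = 0.611) and Il12a by 0.15 ± 0.23 (adjusted p = 0.781). No member was called, against 0.927% of all genes. An unadjusted p below 0.05 was found for 3 members, and for 2074 of all 11763 genes tested. Without the 2 unstimulated libraries that were most alike, Il12b (0.94, adjusted p = 0.0420), Il23a (0.88, adjusted p = 0.0474) and Il27 (−0.62, adjusted p = 0.0432) were called, where 5.32% of all genes were, with changes close to those above. Il12b alone was called with a pseudocount of 5 (0.94, adjusted p = 0.0229) and without the library labelled Bgn-/- with LPS alone (1.19, adjusted p = 0.0442). The median change of all genes was 0.10, and −0.01 after scaling, where no member was called. Il12b over Il10 was 22.4 to 31.8 with protein and LPS, against 6.55 to 12.3 with LPS alone, and Il27 over Ebi3 was 4.77 to 7.32 with protein and LPS, against 7.47 to 10.2 with LPS alone. In LPS libraries the summed markers of B cells were 102 to 171 TPM with protein, against 102 to 130 without, and those of dendritic cells 17.4 to 25.3 with protein, against 19.6 to 25.3 without.

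**Figure D4:**
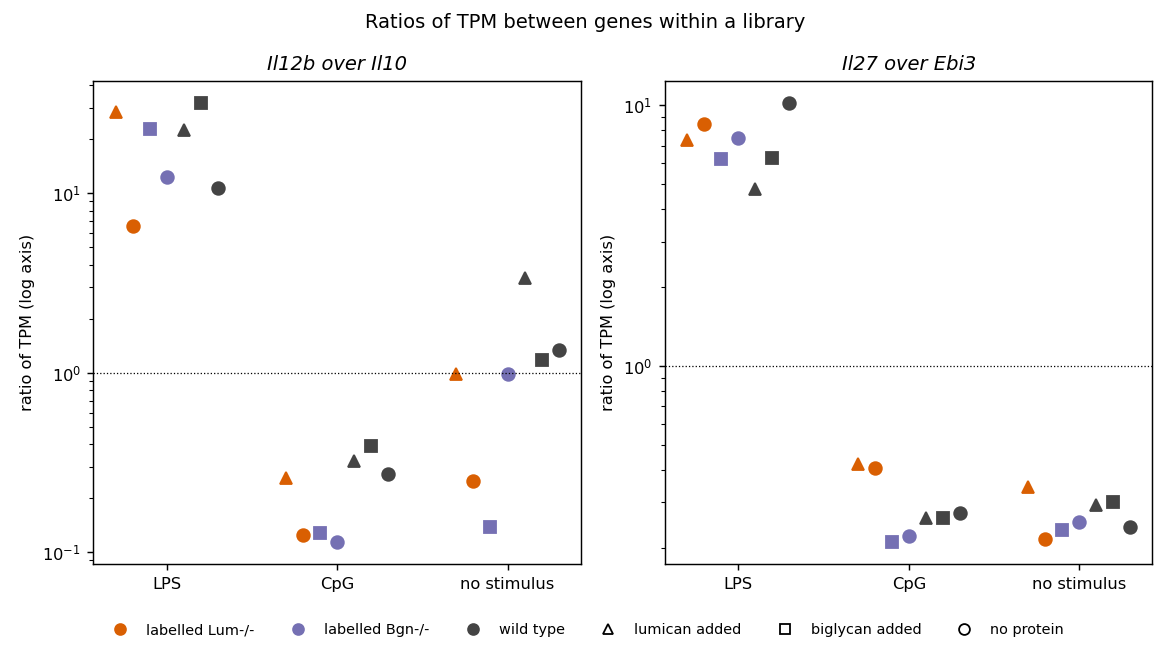
Ratios of TPM within each library on a log axis, Il12b over Il10 (left) and Il27 over Ebi3 (right), for LPS, CpG and no stimulus; the dotted line marks a ratio of 1. Il12b over Il10 lies between 6.55 and 31.8 with LPS and between 0.114 and 0.390 with CpG.

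With CpG, Tnf, Il12a, Il12b and Tnfsf9 were higher with protein in all 4 pairs, by ratios of 1.15 to 1.22 for Tnf, 1.09 to 2.75 for Il12a, 1.09 to 1.99 for Il12b and 1.04 to 1.12 for Tnfsf9. Both wild-type pairs use the same library with CpG alone. How many of all genes were higher in all 4 pairs was not counted. For 0 of the 9 members were the libraries with protein wholly apart from those with CpG alone, against 5.29% of all genes. Il12b was at 2.45 to 6.15 TPM with protein and CpG, against 2.24 to 4.73 with CpG alone. Its change was 0.60 ± 0.27 with lumican and 0.28 ± 0.27 with biglycan (adjusted p of 1.00 for both), and 0% of all genes were called in either comparison (limma; 218 and 364 genes, and 1 and 0 members, had an unadjusted p below 0.05). Il10 was at 15.8 to 20.05 TPM with protein and CpG, against 17.3 to 20.997 with CpG alone. Whether the protein differences with LPS and with CpG differ from each other was not tested.

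The last comparisons set the genotype labels against wild type at matched treatments, and limma called no member in any of the 4 with all libraries. An unadjusted p below 0.05 was found for 2 members in the label Lum-/- with LPS, 0 in the label Bgn-/- with LPS, 1 in the label Lum-/- with CpG and 3 in the label Bgn-/- with CpG. Over all 11763 genes tested, the counts in that order were 1797, 817, 887 and 688. With LPS, 1.11% of all genes were called for the label Lum-/- and 0% for the label Bgn-/- (817 had an unadjusted p below 0.05), and with CpG it was 0.0850% for each. The member nearest to a call was Tnfsf9. It was at 194 TPM with LPS in cells labelled Lum-/-, against 102 in wild type, and at 123 TPM with lumican and LPS in cells labelled Lum-/-, against 84.9 in wild type. With CpG it was at 62.2 TPM in cells labelled Lum-/-, against 42.5 in wild type, and with lumican and CpG at 69.1 TPM, against 47.4. Tnfsf9 was thus higher in 4 of 4 stimulated pairs. Its change was 0.69 ± 0.15 with LPS (adjusted p = 0.0671) and 0.53 ± 0.15 with CpG (adjusted p = 0.351). Without the 2 libraries that were most alike, these had adjusted p of 0.0104 and 0.0449, where 7.96% and 2.73% of all genes were called. The changes themselves stayed at 0.69 and 0.53, because this fit estimates each stimulus separately. Only the estimate of the spread between libraries differed, since the unstimulated libraries no longer added to it. After scaling Tnfsf9 was called with LPS too (0.82, adjusted p = 0.0413).

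Libraries labelled Bgn-/- were lower than wild type for several members with CpG, and this direction was not particular to that label. Libraries labelled Lum-/- were lower in 2 of 2 pairs with CpG for Tnf, Il6, Il12a, Il12b, Il23a and Ebi3. For Il27, Il10 and Tnfsf9 they were higher in 2 of 2. The ratios of the label Lum-/- to wild type were 0.922 and 0.977 for Tnf, and 0.553 and 0.872 for Il12b. Tnfsf9 was at 28.8 TPM with CpG in cells labelled Bgn-/-, against 42.5 in wild type, and at 29.8 TPM with biglycan and CpG in cells labelled Bgn-/-, against 46.5 in wild type (change −0.59 ± 0.15, adjusted p = 0.360). Tnf was at 218 TPM with CpG in cells labelled Bgn-/-, against 339 in wild type, and at 262 TPM with biglycan and CpG, against 410 (change −0.65 ± 0.24, adjusted p = 0.701). Lower Tnf for this label was not particular to CpG. Its ratios to wild type were 0.627 and 0.865 with LPS (change −0.43 ± 0.24, limma adjusted p = 0.837). Without a stimulus the ratios were 0.480 and 0.865, each from a pair with a library that stood apart. Il12b was at 2.24 TPM with CpG in cells labelled Bgn-/-, against 4.73 in wild type, and at 2.45 TPM with biglycan and CpG, against 6.15 (change −0.86 ± 0.25, adjusted p = 0.499). Without the 2 libraries that were most alike, Tnf (adjusted p = 0.0181), Tnfsf9 (adjusted p = 0.0386) and Il6 were called, where 1.72% of all genes were. Their changes were the same as with all libraries, and only the estimate of the spread differed. With all libraries the change of Il6 was −0.70 ± 0.50 and was not called. Il6 was at 7.72 TPM with CpG in cells labelled Bgn-/-, against 15.8 in wild type. With biglycan and CpG it was at 9.12 TPM in cells labelled Bgn-/-, against 13.6 in wild type. With LPS, Il23a was 1.82 and 1.86 times as high in cells labelled Lum-/- as in wild type (change 0.67 ± 0.24, adjusted p = 0.226). Mast cell markers summed to 2.60 to 10.2 TPM in stimulated libraries of the 2 knockout labels, against 64.0 to 114 in stimulated wild-type libraries, and B cell markers to 86.5 to 102 TPM in stimulated libraries labelled Lum-/-, against 123 to 171 in wild type. Their part in these values was not tested.

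**Figure D5:**
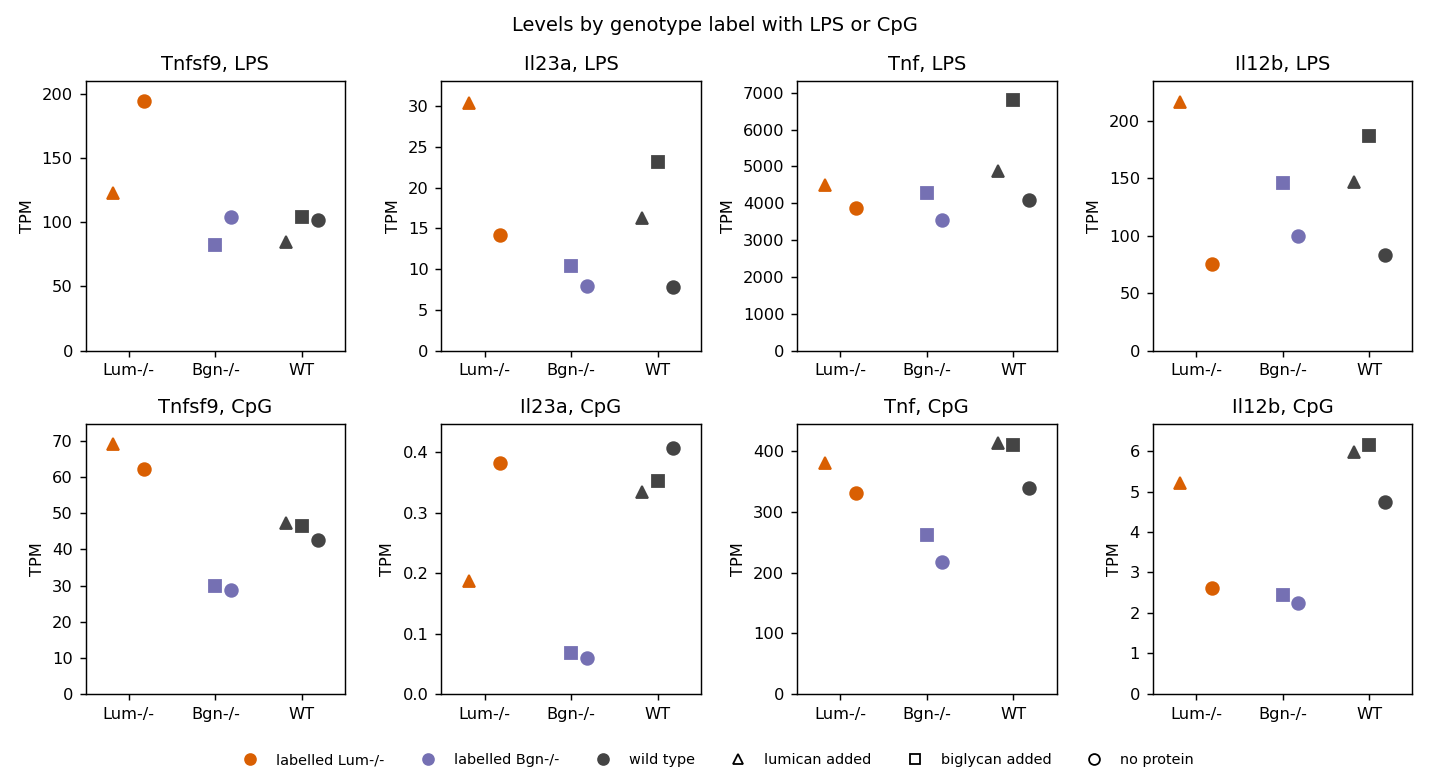
TPM of 4 genes by genotype label (Lum-/-, Bgn-/- and wild type from left to right) with LPS (top) and CpG (bottom); shape gives the added protein. With CpG, Tnfsf9 is at 62.2 and 69.1 TPM in the libraries labelled Lum-/-, 28.8 and 29.8 in those labelled Bgn-/- and 42.5 to 47.4 in wild type.

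Other genes of the same pathways are given by lists, with the 4 genes of each list that changed most with LPS. The counts are to be read against the 14.04% of all genes called higher with LPS and the 71.6% called lower, and counts after scaling are given where they differ. Of 8 receptor genes tested, 2 rose and 5 fell with LPS (median −0.48, against −0.71 over all genes). Il6ra, the IL-6 receptor, fell by 2.76 ± 0.07, and its level was 2.22 to 3.16 TPM with LPS, against 19.5 to 28.4 without a stimulus. Il27ra, the IL-27 receptor, fell by 1.78 ± 0.13, and Tnfrsf1b, a TNF receptor, rose by 1.30 ± 0.09. Il6st, the signalling chain shared by the IL-6 family, fell by 0.68 ± 0.05, but rose by 0.11 after scaling, where 6 of the 8 were called higher and 2 lower. With CpG, 1 receptor gene rose and 2 fell, Il6ra among them (−0.84 ± 0.07).

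Of 5 tested genes of other IL-6 and IL-10 family cytokines, 4 rose with LPS and 0 fell (5 and 0 after scaling). Il19 and Il22 reached a mean of 1 TPM only through their LPS libraries, so this count is not independent of the filter. Lif rose by 4.82 ± 0.20 and Osm, which encodes oncostatin M, by 3.70 ± 0.18. Il19 rose by 3.85 ± 0.20. Il22 was listed at 0 in all CpG and unstimulated libraries and was at 1.58 to 5.40 TPM with LPS. With CpG, 1 of the 5 rose, Lif at 0.56 ± 0.20 (adjusted p = 0.0453), and 0 did after scaling. Of 9 tested ligands of the TNF superfamily besides Tnf and Tnfsf9, 3 rose and 4 fell with LPS (median −0.98; 3 and 3 after scaling). Lta, among the 3 that rose, was at 1.78 to 3.35 TPM with LPS, 0.741 to 2.33 with CpG and 0 to 0.317 without a stimulus. It reached a mean of 1 TPM only through its LPS libraries, so this count is not independent of the filter either. Tnfsf13b, among those that fell with LPS and with CpG, reached that mean only through its unstimulated libraries. It was at 2.00 to 3.93 TPM in those, against 0.128 to 0.734 with LPS and 0.951 to 1.53 with CpG. The counts of falls are thus tied to the filter too. Tnfsf15 rose by 3.68 ± 0.12 and Tnfsf10, which encodes the death ligand TRAIL, by 1.94 ± 0.23. Tnfsf13, which encodes APRIL, fell by 3.91 ± 0.14, and Tnfsf12, which encodes TWEAK, fell by 3.48 ± 0.11. With CpG, 2 of the 9 rose and 4 fell.

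Of 7 tested genes listed for TNF release from the membrane, 1 rose and 4 fell with LPS (median −0.94). These 7 include Litaf and Spsb1, which are not genes of the shedding step. Adam17, the protease that sheds TNF, fell by 1.11 ± 0.05, Adam10 fell by 1.07 ± 0.05 and Rhbdf1 fell by 0.99 ± 0.14, whereas Rhbdf2, which brings ADAM17 to the cell surface, rose by 0.99 ± 0.07. After scaling, 3 rose and 3 fell, with Adam17 at −0.29 and Rhbdf2 at 1.81. Besides Rhbdf2, the genes that rose after scaling were Litaf (0.78) and Spsb1 (0.51). Of 22 transcription and mRNA decay regulators, 13 rose and 5 fell with LPS (median 0.34), and 19 rose and 1 fell after scaling (median 1.14). Nfkbiz, an IkB protein needed for Il6 and Il12b transcription in mouse macrophages, rose by 2.64 ± 0.13, and Zc3h12a, a nuclease that degrades Il6 and Il12b mRNA, by 2.45 ± 0.06. Arid5a, which stabilises Il6 mRNA, rose by 1.93 ± 0.06, and the transcriptional repressor gene Bhlhe41 fell by 1.92 ± 0.09. With CpG, 12 of the 22 rose and 3 fell.

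With either protein and LPS against LPS alone, 1 gene of the 5 lists was called, where 0.927% of all genes were. It was Zfp36, named after its values were seen, which encodes the protein tristetraprolin that binds and destabilises Tnf mRNA. Zfp36 was at 126 TPM with lumican and LPS, against 187 with LPS alone, in cells labelled Lum-/-, and at 120 TPM with biglycan and LPS, against 157 with LPS alone, in cells labelled Bgn-/-. In wild type it was at 94.9 TPM with lumican and LPS and 103 with biglycan and LPS, against 125 with LPS alone. It fell by 0.44 ± 0.09 (adjusted p = 0.0383) and was lower in 4 of 4 pairs, and the sets of libraries met at 126 TPM with protein and 125 TPM without. After scaling Irf8, a transcription factor gene, was also called (−0.40, adjusted p = 0.0485). The Zfp36 call was lost in 16 of 28 alternatives, most of which leave out 1 library (adjusted p 0.0172 to 0.198).

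The genes whose pattern over the 21 libraries was most like each member's were found by Pearson's r of log2(TPM + 1), given as a description, since the libraries share their stimuli. For Tnf they were Nfkbib (r = 0.993) and Gdf15 (0.992), for Il6 they were Il1b (0.994) and Il1a (0.991), for Il12b they were Cxcl2 (0.992) and Ccl3 (0.991), and for Il12a they were Zc3h12a (0.986) and Calcr (0.984). Il23a was most like Spry1 (0.991) and Armcx4 (0.990), Il27 like Usb1 (0.993) and Slc15a3 (0.991), and Tnfsf9 like Ifrd1 (0.983) and Cemip2 (0.981). The best matches of Il10 were weaker, Fcrl5 (0.918) and Batf (0.897), and those of Ebi3 weaker still, Eif3d (0.839) and Cd300e (0.834). Among the members themselves r was 0.936 to 0.982 between Tnf and each of Il6, Il12a, Il12b, Il23a and Il27, but 0.189 between Tnf and Il10 and −0.33 between Tnf and Ebi3.

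The transcripts behind the gene levels also differed with the stimulus. Il27, Ebi3, Il10 and Tnfsf9 have 1 transcript each in the table. Tnf and Il12b have 2 each, of which a single transcript carried 99.98% and 99.9% of the level with LPS. The main Il6 transcript, of 4, carried 90.8% of the Il6 level with LPS, 71.4% with CpG and 44.4% without a stimulus. The main Il12a transcript, of 6, carried 79.8% with LPS, 59.2% with CpG and 34.3% without a stimulus. Shares at CpG and without a stimulus rest on low levels.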

How the data were processed

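RNA of CD11b+ peritoneal cells was sequenced in 21 libraries, grouped by the genotype, protein and stimulus in their titles. Libraries were strand-specific (TruSeq) and read on a HiSeq, per the labels' protocols. The tools kallisto 0.44.0 and bcl2fastq 1.8.4 and the build GRCm38 are listed in the submitters' processing notes. The deposited table gives TPM per transcript, normalized by the authors so that each library sums to 1000000; it holds no counts, so depth and its intervals are not given. Of 89562 transcripts, 6774 lack a gene name; 5423 were matched by identifier to GENCODE M21 and 1351 were left out (5351 to 7551 TPM per library). TPM was summed per gene.

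Genes whose mean over the libraries was 1 TPM or more (11763) were tested on log2(TPM + 1) with limma 3.58.1 (R 4.3.3; eBayes with a trend, two-sided, Benjamini-Hochberg adjusted p below 0.05). Fold changes on this scale understate those of low genes. Stimulus and protein comparisons came from genotype plus protein-by-stimulus (10 residual degrees of freedom), with stimulus comparisons averaged over the 3 protein levels, and genotype comparisons from a fit with genotype-by-stimulus added (6). There were 11 comparisons, and 1 was added after the data were seen. The fits were tested on simulated data. Alternatives were pseudocounts of 0.1 and 5, no filter, median-of-ratios scaling, fits without 2 or 3 libraries that stood apart, without each library in turn, with stimulated and unstimulated cells compared without added protein, and within 1 stimulus. Sums, ranges and figures were made with numpy 2.4.6, pandas 2.3.3 and matplotlib 3.10.9 in Python 3.11.15.

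The members and the gene lists were chosen with earlier results of these data known. All 9 members are named, with the 2 genes most like each and the 4 genes of each list that changed most with LPS. Promoters are from RefSeq, GRCm38.p6. No interaction between genotype, protein and stimulus was tested.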

Additional observations from a re-analysis of the deposited data

Results flagged for a closer look

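Of 27 groups of 7 libraries (each gene under each stimulus) checked for a library far from the others, 1 held such a library, and chance alone flags about 1 group in 20. Ebi3 was at 51.8 TPM in the wild-type library with neither protein nor stimulus, against 24.9 to 27.6 TPM in the other unstimulated libraries. On the log2(TPM + 1) scale, the gap to its nearest neighbour was 0.862 of the group's whole range, above Dixon's 95% critical value for 7 samples. In the same library mast cell markers summed to 3.40 TPM, against 64.0 to 114 in the other wild-type libraries. Neutrophil markers, mostly S100a8 and Mmp8, summed to 406 TPM, against 243 to 316 in the other unstimulated libraries. Their part in the Ebi3 value was not tested.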

How the results depend on the processing

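Over the 52 named gene results there were 1456 alternative values, of which 1388 kept direction and side of the threshold, 35 lost their call, 27 gained one and 6 reversed. All 8 LPS rises, and the CpG rises of Il10, Tnf and Tnfsf9, held in each of their 28 alternatives. Il27 lost its CpG call in 13 and Ebi3 in 4. Scaling turned Ebi3 to 0.68 for LPS against no stimulus and to 0.22 for LPS against CpG. Without added protein on either side, CpG called 2260 genes and 3 members, and Il12a turned to −0.29; the cause of this and of the changes below was not tested.

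Without 2 libraries, and without 3, the fits called 936 and 930 genes for the label Lum-/- with LPS (1 member in each), 132 and 142 for Bgn-/- with LPS, 321 and 319 for Lum-/- with CpG (1 member in each), 202 and 202 for Bgn-/- with CpG (3 members in each), 266 and 336 for lumican with LPS (1 member in each, Il27), 20 and 24 for biglycan with LPS, and 626 and 804 for either protein with LPS (3 members in each). Lumican with CpG gave 1 gene without 3 libraries. For the genotype labels these fits left the changes as they were, and only the estimate of the spread differed. Within 1 stimulus alone (2 residual degrees of freedom), counts in that order were 202, 21, 149 (1 member), 115 (2 members), 0, not changed, and 9, with 4 and 1 genes for lumican and biglycan with CpG. With a pseudocount of 0.1 they were 6 for Bgn-/- with LPS, 6 for Lum-/- with CpG, 41 for lumican with LPS and 203 for either protein. With a pseudocount of 5 they were 3 for Bgn-/- with LPS, 1 for lumican with LPS and 55 for either protein (1 member, Il12b). With no filter they were 1 for Bgn-/- with LPS, 6 for Lum-/- with CpG, 1 for Bgn-/- with CpG, 20 and 6 for lumican and biglycan with LPS, and 5 and 4 with CpG. With scaling they were 4 for Bgn-/- with LPS, 4 for Lum-/- with CpG and 20 and 1 for lumican and biglycan with LPS, and Tnfsf9 was 1 member called for Lum-/- with LPS.

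Leaving out 1 library at a time, counts were 0 to 420 for Lum-/- with LPS (0 to 1 members), 0 to 26 for Bgn-/- with LPS, 0 to 55 for Lum-/- with CpG, 0 to 49 for Bgn-/- with CpG, 0 to 49 and 0 to 1 for lumican and biglycan with LPS, 0 to 1 for each protein with CpG, and 0 to 224 for either protein with LPS (0 to 1 members). Il23a for Bgn-/- with LPS ran from −1.09 without the library with LPS alone to 0.034 without the library with biglycan and LPS, and Il12b for biglycan with CpG from −0.11 without the wild-type library to 0.64 without that labelled Bgn-/-. No paired analysis was possible because the labels give no replicate numbers; genotype label was a term in every fit. The table states no depth, so the precision of low levels such as Il23a without LPS is unknown.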
